A study of Mus musculus with 4 samples.

Results

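The Notch ligands Dll1, Dll3, Dll4 and Jag1, the receptors Notch1, Notch2 and Notch3, and the genes Hes1, Hes6 and Hey1 were followed through the cells of mouse small cell lung cancer. The members were chosen by gene symbol, and all 10 were listed once in each of the 4 matrices, among 32285 features per lung matrix and 31053 per allograft matrix. RNA of single cells was measured with a 3′ droplet assay in 4 libraries, 1 per group. CRPR2 and RPR2 were tumours taken from lung in a mouse model driven by gene deletion. In this field CRPR2 stands for loss of Cracd, a regulator of actin capping, on top of the losses that RPR2 stands for, those of Rbl2, Trp53 and Rb1, so both lung groups share the last 3. The labels do not spell out these genotypes, and no source used here gives the Cre driver or the ages of the mice. The libraries labelled preSC_CracdKO and preSC_WT were allografts of preSC, a mouse precancerous neuroendocrine line, with the genotypes CracdKO and WT. Sources used here do not say whether the edited line was 1 clone or which host carried the grafts. Because each group held 1 library, no spread between animals was measured, no p-value was computed, and every interval below is a 95% interval that covers counting error only.

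Notch signalling passes between neighbouring cells. A ligand on the sending cell binds a receptor on its neighbour, the receptor is cut first by Adam10 and then by gamma-secretase, and its intracellular part joins Rbpj in the nucleus to switch on genes such as Hes1 and Hey1. In lung airways and in small cell lung cancer, neuroendocrine cells are known as senders that carry delta ligands, whereas Hes1, a transcriptional repressor, is known from the airway cells around them and from non-neuroendocrine tumour cells.

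Promoters of the members were searched for CAGCTG, an E-box, the kind of site bound by basic helix-loop-helix factors. The windows were RefSeq promoters of build GRCm38.p6, from 250 bases before to 50 bases after a start, and 10 windows covered 8 of the 10 members. Hes1 and Hey1 had no entry in the table. CAGCTG, which reads the same on both strands, was in 5 of these windows, which belonged to Dll1, Dll3, Hes6 and Jag1, and in 16.3% of all 32851 windows. The related E-box CAGGTG, searched on both strands, was in 3 windows, of Dll1, Dll3 and Hes6, and in 20.2% of all windows. TGGGAA, the core of the sequence bound by Rbpj, was searched on both strands and was in 0 member windows and in 25.6% of all windows. The 3 motifs differ in at least 1 letter, so no site was counted for more than 1 of them. The 5 CAGCTG sites are shown as the motif matches among the members. The presence of CAGCTG did not follow the pattern of levels described below, since Dll4, lower in Vim-positive than in tumour cells like Dll1, Dll3 and Hes6, had none, and Jag1, which was higher, had one. Each is written 5′ to 3′ on the minus strand with the E-box in capitals. A match describes these letters and is not evidence of binding.
Hes6, chr1:91414192-91414221: cggaagcggctgCAGCTGccaactgtcacg
Hes6, chr1:91413355-91413384: gctccgccccgcCAGCTGccagagacccgc
Jag1, chr2:137116585-137116614: ccgcgtttcatgCAGCTGatctgaaaggga
Dll3, chr7:28301775-28301804: tccggcatccagCAGCTGcgactcctgaga
Dll1, chr17:15377047-15377076: tgcattaccataCAGCTGagcgcacaaaga
The E-boxes began 171 and 150 bases before the 2 annotated starts of Hes6, 82 bases before that of Jag1, 7 bases before that of Dll3 and 132 bases before that of Dll1. These are the RefSeq starts of the windows. By the gene spans given below, the sites of Jag1 and Dll3 and the Hes6 site at 150 bases lie inside the gene.

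The deposited libraries held between 42592323 and 110576113 UMIs, a UMI being 1 counted RNA molecule, over 9215 to 18559 barcodes. Between 36 and 79 cell barcodes were shared by any 2 libraries. Levels are given as CPM, the UMIs of a gene scaled in the usual way by the total UMIs of that class and library. UMIs come from the 3′ end and are not divided by length, so levels are compared between cells and not between genes. Cracd, listed as C530008M17Rik on chr5, had 23.6 CPM (21.8 to 25.5) in CRPR2 tumour cells and 31.6 CPM (29.3 to 34.0) in RPR2 tumour cells. In the allografts it had 84.3 CPM (82.4 to 86.3) in tumour cells of the library labelled preSC_CracdKO and 6.52 CPM (5.97 to 7.10) in those of the library labelled preSC_WT, which goes against those labels. A 3′ tag can be counted from a gene whose protein is lost, so these levels do not check a deletion, but every allograft direction below rests on the labels as given, and the names preSC_CracdKO and preSC_WT stand for the library labelled so and not for a checked genotype.

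Cell classes were rebuilt from clusters made without the 10 members. Tumour cells numbered 6640 in CRPR2, 3067 in RPR2, 13596 in preSC_CracdKO and 13763 in preSC_WT, with median depths of 3381.5, 6070, 5849.5 and 4681 UMIs. All 16 neuroendocrine markers were detected in each of these classes. Vim-positive cells, which carried vimentin and keratins and little neuroendocrine RNA, numbered 530 in CRPR2. The same cluster held 9 cells of RPR2, which also carried vessel RNA and for which the name is uncertain. Club-like airway cells numbered 890 in CRPR2 and 199 in RPR2, and neither class was named in the allografts at the clustering resolution used. T-cell-like cells numbered 879, 1327, 71 and 1662 in CRPR2, RPR2, preSC_CracdKO and preSC_WT, and 3378 further T-lineage cells of RPR2 with Rag1, Cd8b1 and Dntt were kept apart as thymocyte-like. Stromal cells numbered 124, 41, 38 and 647. Classes under 20 cells in a library are given as UMIs and not as levels. A further cluster of 267 CRPR2 and 79 RPR2 cells carried both club and tumour RNA and was left out.

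**Figure D1:**
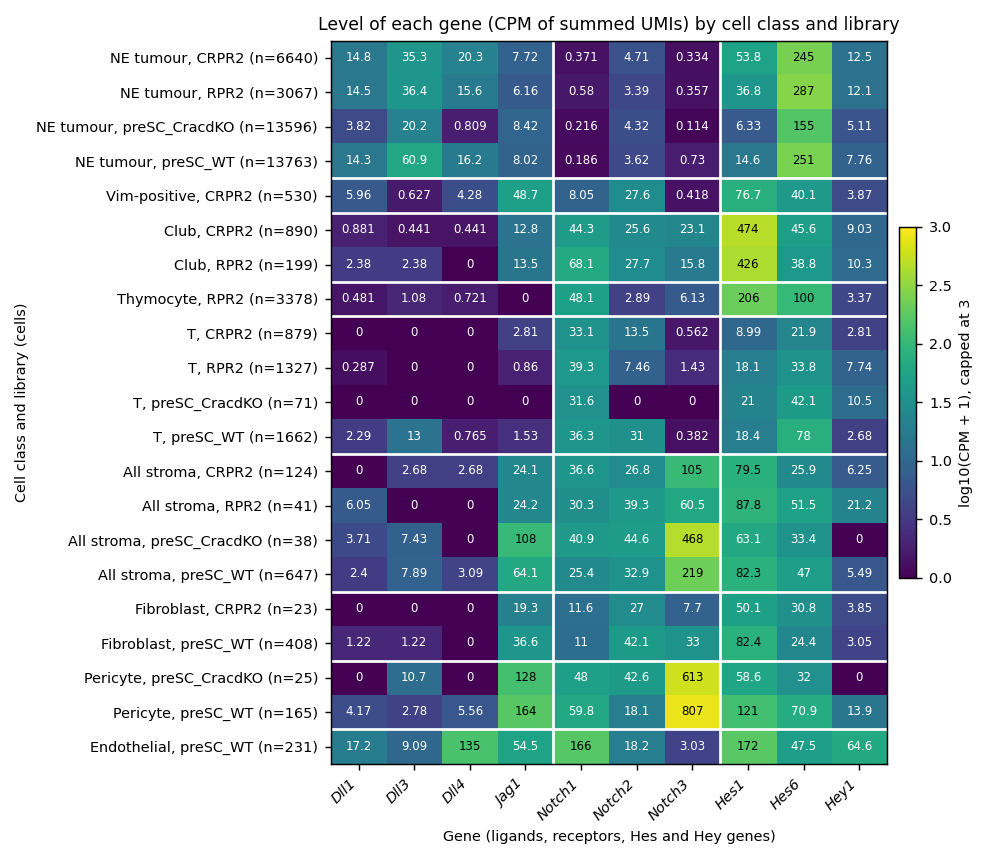
Level of each of the 10 genes (columns, in the order ligands, receptors, Hes and Hey genes) in each cell class and library with at least 20 cells (rows, number of cells in brackets). Numbers are CPM of summed UMIs and colour is log10(CPM + 1); the delta ligands lie mainly in tumour and endothelial cells, Notch1 outside the tumour cells, and Hes1 is highest in club cells of CRPR2 at 474 CPM.

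Among the ligands, the delta genes were higher in neuroendocrine tumour cells than in Vim-positive cells of CRPR2. No endothelial class was named in the lung pair, so the class with the highest Dll4 level, named in the allografts, has no lung counterpart here. Dll3, which in mouse acts inside the cell and hinders Notch rather than activating a neighbour, lies at chr7:28293553-28302238 of build mm10. It had 35.3 CPM (33.1 to 37.6) in CRPR2 tumour cells and 36.4 CPM (34.0 to 39.0) in RPR2 tumour cells. In the allografts it had 20.2 CPM (19.3 to 21.1) in preSC_CracdKO tumour cells and 60.9 CPM (59.2 to 62.6) in preSC_WT tumour cells. Dll3 was low in the Vim-positive, club-like and T-cell-like cells of the lung. The 530 Vim-positive cells of CRPR2 held 6 Dll3 UMIs, or 0.0178 times the tumour level of that library (0.0065 to 0.0388), and the club-like cells held 2 in CRPR2 and 3 in RPR2. The mixed club and tumour cluster had 16.8 CPM in CRPR2 and 14.4 CPM in RPR2, and 2 Dll3 UMIs in 38 neutrophil-like cells of RPR2 gave 22.4 CPM (2.72 to 81.0). No Dll3 UMI was seen in T-cell-like cells of either lung library, which allows up to 1.68 CPM in CRPR2 and 0.86 CPM in RPR2 at 3 counts.

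In T-cell-like cells of preSC_WT, however, Dll3 stood at 13.0 CPM, 0.213 times its tumour level. The 16 neuroendocrine markers were all detected in these cells and summed to 1635 CPM, against 216 CPM in T-cell-like cells of CRPR2, 90.9 CPM in those of RPR2 and 21.0 CPM in those of preSC_CracdKO. The part of free RNA in these values was not tested.

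Dll1, an activating ligand at chr17:15367354-15376872, had 14.8 CPM (13.4 to 16.4) in CRPR2 and 14.5 CPM (13.0 to 16.2) in RPR2 tumour cells. It had 3.82 CPM (3.42 to 4.25) in preSC_CracdKO and 14.3 CPM (13.5 to 15.2) in preSC_WT tumour cells. The level of preSC_CracdKO was the lowest of the 4, and the other intervals overlapped. Vim-positive cells of CRPR2 had 5.96 CPM, 0.401 times their tumour level (0.298 to 0.531). Club-like cells held 4 Dll1 UMIs in CRPR2 and 3 in RPR2.

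Dll4, an activating ligand best known from the tips of growing vessels, lies at chr2:119325784-119335962. Tumour cells had 20.3 CPM (18.7 to 22.1) in CRPR2 and 15.6 CPM (14.0 to 17.3) in RPR2. They had 0.809 CPM (0.632 to 1.02) in preSC_CracdKO, from 71 UMIs over 13596 cells, and 16.2 CPM (15.3 to 17.1) in preSC_WT, from 1309 UMIs. Endothelial RNA in the same tumour cells is given beside these values. Cdh5, which defines endothelium, had 1 UMI in CRPR2, 0 in RPR2, 7 in preSC_CracdKO and 9 in preSC_WT tumour cells. Of the 7 endothelial markers, 6, 5, 7 and 7 were detected in these libraries, with sums of 608, 533, 40.9 and 412 CPM. Emcn was at 0 in CRPR2, and Cdh5 and Cldn5 were at 0 in RPR2. Cdh5 made up almost none of these sums. The highest Dll4 level was that of the 231 endothelial-like cells of preSC_WT, at 135 CPM (113 to 160), or 8.36 times the tumour level of that library (6.94 to 9.99). The 17 endothelial-like cells of preSC_CracdKO held 20 Dll4 UMIs. The 408 fibroblast-like cells of preSC_WT held 0 Dll4 UMIs, which allows up to 1.83 CPM.

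Jag1, the jagged ligand at chr2:137081456-137116644, followed another order. It was low in tumour cells, at 7.72 CPM in CRPR2 (6.71 to 8.84), 6.16 CPM in RPR2 (5.18 to 7.28), 8.42 CPM in preSC_CracdKO (7.82 to 9.05) and 8.02 CPM in preSC_WT (7.41 to 8.66). In CRPR2, Vim-positive cells reached 48.7 CPM (44.4 to 53.3), 6.31 times the tumour level (5.35 to 7.46). Pericyte-like cells, the mural cells of small vessels, were the highest, with 128 CPM (82.0 to 190) in preSC_CracdKO and 164 CPM (136 to 197) in preSC_WT. Endothelial-like cells of preSC_WT had 54.5 CPM (41.0 to 71.1) and fibroblast-like cells 36.6 CPM (28.0 to 47.2), and the intervals of these 2 classes overlapped. T-cell-like cells held at most 5 Jag1 UMIs in any library.

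Notch1 and Notch3 were nearly silent in tumour cells. Notch1, a receptor at chr2:26457903-26516663, gave 10 UMIs in 6640 CRPR2 tumour cells, 13 in 3067 RPR2, 19 in 13596 preSC_CracdKO and 15 in 13763 preSC_WT tumour cells. Its level was between 0.186 and 0.58 CPM in all 4. The Vim-positive, club-like, T and stromal classes of at least 20 cells all had more. Vim-positive cells of CRPR2 had 8.05 CPM (6.35 to 10.1), 21.7 times the tumour level (11.2 to 47.0). T-cell-like cells had 33.1, 39.3, 31.6 and 36.3 CPM in CRPR2, RPR2, preSC_CracdKO and preSC_WT, with overlapping intervals, and the third of these values rests on 3 UMIs. Club-like cells had 44.3 CPM (38.4 to 50.9) in CRPR2 and 68.1 CPM (54.5 to 84.1) in RPR2. Endothelial-like cells of preSC_WT were the highest at 166 CPM (141 to 193), and the 17 cells of preSC_CracdKO held 20 Notch1 UMIs.

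Notch3, a receptor known from mural cells, lies at chr17:32120820-32166852. Tumour cells held 9, 8, 10 and 59 Notch3 UMIs in CRPR2, RPR2, preSC_CracdKO and preSC_WT, or at most 0.73 CPM. Pericyte-like cells had 613 CPM (506 to 736) in preSC_CracdKO and 807 CPM (742 to 875) in preSC_WT, a ratio of 0.76 (0.616 to 0.93). The few pericyte-like cells of the lung held 48 Notch3 UMIs in 15 cells of CRPR2 and 11 UMIs in 8 cells of RPR2. Over all stroma the order of the allografts turned round, with 468 CPM (390 to 557) in preSC_CracdKO and 219 CPM (203 to 237) in preSC_WT. Pericyte-like cells made up 25 of 38 stromal cells in preSC_CracdKO and 165 of 647 in preSC_WT. Club-like cells had 23.1 CPM (18.9 to 28.0) in CRPR2 and 15.8 CPM (9.68 to 24.5) in RPR2. The Vim-positive cells of CRPR2 held 4 Notch3 UMIs, so their level of 0.418 CPM (0.114 to 1.07) was not distinguishable from that of tumour cells at this depth.

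Notch2, at chr3:98013527-98150361, was measured at a low level in tumour cells of all 4 libraries. It had 4.71 CPM (3.93 to 5.61) in CRPR2, 3.39 CPM (2.67 to 4.25) in RPR2, 4.32 CPM (3.89 to 4.77) in preSC_CracdKO and 3.62 CPM (3.22 to 4.06) in preSC_WT tumour cells. Vim-positive cells of CRPR2 had 27.6 CPM (24.4 to 31.1), 5.85 times the tumour level (4.72 to 7.29), and club-like cells had 25.6 CPM in CRPR2 and 27.7 CPM in RPR2. Fibroblast-like cells of preSC_WT had 42.1 CPM (32.8 to 53.3). T-cell-like cells had 13.5 CPM (8.64 to 20.1) in CRPR2, 7.46 CPM (4.87 to 10.9) in RPR2 and 31.0 CPM (24.6 to 38.5) in preSC_WT, and 0 UMIs in the 71 cells of preSC_CracdKO.

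**Figure D2:**
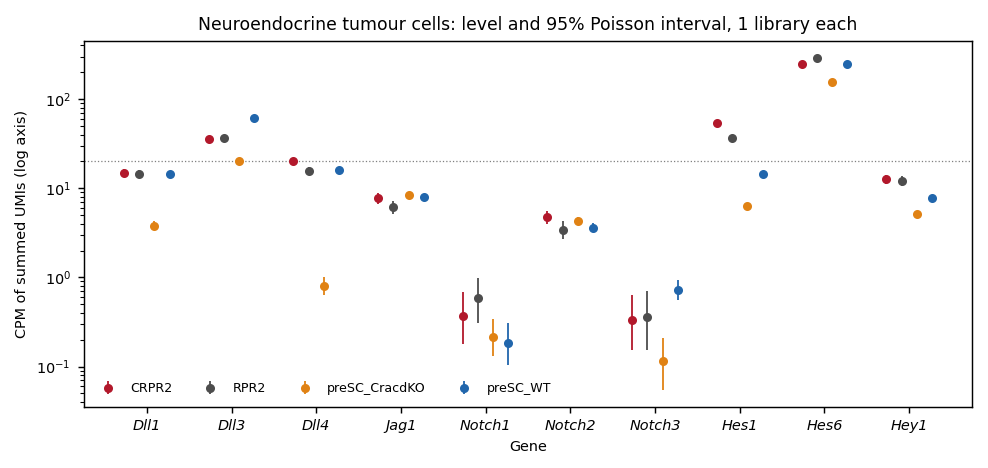
Level of each gene in neuroendocrine tumour cells, in CPM on a log axis, with 1 point per library and its 95% Poisson interval; the dotted line is 20 CPM. Notch1 and Notch3 lie below 1 CPM in all 4 libraries, and the point of Dll4 in preSC_CracdKO, 0.809 CPM, lies far under those of the other 3.

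Because cells differ in depth, detection was also counted after thinning tumour cells to 2000 UMIs. Shallower cells were left out, 1067 in CRPR2, 217 in RPR2, 495 in preSC_CracdKO and 1822 in preSC_WT, so that 5573, 2850, 13101 and 11941 cells remained. A UMI of any of the 4 ligands was then seen in 14.1% of CRPR2 and 13.9% of RPR2 tumour cells, and in 6.63% of preSC_CracdKO and 18.0% of preSC_WT tumour cells. A UMI of any of the 3 receptors was seen in 1.18% and 1.09%, and in 0.756% and 0.913%, in the same order. Both kinds were seen in the same cell in 0.161% of CRPR2, 0.175% of RPR2, 0.0382% of preSC_CracdKO and 0.151% of preSC_WT tumour cells. At equal depth, the point values of preSC_CracdKO were thus the lowest of the 4 libraries for ligands, for receptors and for both together. These shares are given without intervals, and the receptor shares lay close together. By level, Notch2 was higher in preSC_CracdKO than in preSC_WT tumour cells, as given above.

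Hes1, the best known Notch response gene, lies at chr16:30064384-30067796. It was highest in club-like cells, with 474 CPM (454 to 495) in CRPR2 and 426 CPM (391 to 464) in RPR2, which was 8.82 (8.24 to 9.43) and 11.6 (10.4 to 12.9) times the tumour level of the same library. Tumour cells had 53.8 CPM (51.0 to 56.6) in CRPR2, 36.8 CPM (34.4 to 39.4) in RPR2, 6.33 CPM (5.82 to 6.88) in preSC_CracdKO and 14.6 CPM (13.7 to 15.4) in preSC_WT, and these intervals did not overlap. Both allografts were lower than both lung tumours, although the pairs differ in feature list and Cell Ranger version. Endothelial-like cells of preSC_WT had 172 CPM (147 to 200). Stromal cells lay together in all 4 libraries, at 79.5, 87.8, 63.1 and 82.3 CPM in CRPR2, RPR2, preSC_CracdKO and preSC_WT, with overlapping intervals. The stromal class was mixed. Of 124 CRPR2 stromal cells, 54 lay in a sub-cluster led by Spp1 and Chga, as did 7 of 41 in RPR2, and 6 of 38 in preSC_CracdKO and 34 of 647 in preSC_WT lay in one led by Krt14 and Krt5. Within pericyte-like cells Hes1 had 58.6 CPM (29.3 to 105) in preSC_CracdKO, from 11 UMIs, and 121 CPM (96.9 to 149) in preSC_WT, a ratio of 0.484 (0.233 to 0.91). T-cell-like cells had 8.99 CPM (5.14 to 14.6) in CRPR2, 18.1 CPM (13.9 to 23.1) in RPR2, 21.0 CPM from 2 UMIs in preSC_CracdKO and 18.4 CPM (13.5 to 24.3) in preSC_WT.

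Club RNA was present in lung tumour cells at low levels and is given beside these values. Of the 8 club markers, 7 were detected in tumour cells of each lung library with Reg3g at 0, and their sum was 698 CPM in CRPR2 and 113 CPM in RPR2. Scgb1a1, the main club product, stood in tumour cells at 0.285% of its club level in CRPR2 and 0.0517% in RPR2. Hes1 stood at 11.3% and 8.64% of its club level. The part of club RNA in the tumour Hes1 levels was not tested.

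Hes6, which in mouse opposes Hes1 and favours neurogenic differentiation, lies at chr1:91411483-91414038. Among the tumour, Vim-positive, club-like, T and stromal classes, tumour cells were the highest in each library, with 245 CPM (239 to 251) in CRPR2, 287 CPM (280 to 294) in RPR2, 155 CPM (152 to 158) in preSC_CracdKO and 251 CPM (247 to 254) in preSC_WT. Vim-positive cells of CRPR2 had 40.1 CPM, 0.164 times the tumour level (0.148 to 0.182), and club-like cells had 45.6 CPM in CRPR2 and 38.8 CPM in RPR2. Thymocyte-like cells of RPR2 came next to tumour cells in that library, with 100.4 CPM (93.7 to 107).

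Hey1, another repressor induced by Notch, lies at chr3:8663359-8667256. Tumour cells had 12.5 CPM (11.2 to 14.0) in CRPR2, 12.1 CPM (10.7 to 13.6) in RPR2, 5.11 CPM (4.65 to 5.61) in preSC_CracdKO and 7.76 CPM (7.16 to 8.39) in preSC_WT. Endothelial-like cells of preSC_WT were the highest at 64.6 CPM (49.8 to 82.5), 8.33 times the tumour level of that library (6.34 to 10.8). Stromal cells had 6.25 CPM (2.51 to 12.9) in CRPR2 and 21.2 CPM (8.52 to 43.7) in RPR2, from 7 UMIs each, a ratio of 0.295 (0.0884 to 0.986). The endothelial-like cells of preSC_WT also held the highest class levels of Dll4 and Notch1 given above, so ligand, receptor and response genes were high in the same class.

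Vim-positive cells of CRPR2 differed from the tumour cells of the same library across the set. Jag1, Notch1, Notch2 and Hes1 were higher, Dll1, Dll3, Dll4, Hes6 and Hey1 were lower, and the interval of Notch3 spanned equality. Hes1 was 1.43 times the tumour level (1.30 to 1.56). Vessel markers differed between these classes too. Cdh5 had 16.2 CPM in Vim-positive cells and 0.0371 CPM in tumour cells, Pecam1 had 10.3 and 2.56 CPM, and the pericyte gene Rgs5 had 10.9 and 0.186 CPM. All 7 endothelial markers were detected in Vim-positive cells, with a sum of 82.6 CPM. In tumour cells 6 of 7 were detected, with a sum of 608 CPM, of which Cdh5 and Pecam1 made up little. All 7 pericyte markers were detected in Vim-positive and in tumour cells, with sums of 30.1 and 2.08 CPM. The part of vessel RNA in the Vim-positive values was not tested. Rest, a repressor of neuronal genes known as a Notch target in this cancer, had 78.3 CPM in Vim-positive cells and 0.742 CPM in tumour cells. These cells came from 1 library, at a median of 12536 UMIs, and no second library repeats the comparison. The 9 Vim-positive cells of RPR2 held 4 UMIs of Dll4, 4 of Notch1, 1 of Notch3 and 5 of Hes1, and none of the other 6 genes. They also held 11 UMIs of Cdh5 and 14 of Pecam1, both endothelial markers. All 7 endothelial and 4 of 7 pericyte markers were detected in these 9 cells, as were all 11 of the keratin and vimentin list. The name Vim-positive is therefore uncertain for them.

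The lung comparison set CRPR2 tumour cells against RPR2 tumour cells, groups whose names stand for presence or absence of Cracd loss but whose Cracd RNA, given above, did not check it. A gene was called different at 2-fold or more where the higher of both libraries reached 20 CPM. Of the 4 members that reached 20 CPM, Dll3, Dll4, Hes1 and Hes6, 0 were called, where 1.11% of 7202 genes were called in either direction. The largest ratio among the 4 was that of Hes1, at 1.46 (1.34 to 1.59), and CRPR2 was higher than RPR2 in 6 of 6 tumour clusters. Dll4 had a ratio of 1.31 (1.14 to 1.5), higher in CRPR2 in 5 of 6 clusters. Hes6 had a ratio of 0.852 (0.824 to 0.882), lower in CRPR2 in 5 of 6 clusters. Dll3 had a ratio of 0.969 (0.882 to 1.07), higher in CRPR2 in 3 of 6 clusters and lower in 3. The clusters are parts of the same libraries, so agreement among them does not repeat the comparison. The members under 20 CPM had ratios of 1.02 for Dll1 (0.882 to 1.19), 1.25 for Jag1 (1.01 to 1.57), 1.39 for Notch2 (1.04 to 1.87) and 1.04 for Hey1 (0.881 to 1.22). For Notch1 and Notch3 the intervals, 0.251 to 1.58 and 0.32 to 2.79, were too wide to show a difference of 2-fold. The spread between animals was not measured, so it is not known whether ratios of this size exceed it.

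The allograft comparison set preSC_CracdKO over preSC_WT. Dll3 and Hes6 reached 20 CPM, and Dll3 was called, at a ratio of 0.331 (0.314 to 0.35). In this pair 21.2% of 8145 genes were called, 14.3% lower and 6.94% higher in preSC_CracdKO, so 1 call in 2 members does not set them apart. Hes6 had a ratio of 0.618 (0.604 to 0.631). Below 20 CPM, Dll4 had a ratio of 0.0499 (0.0388 to 0.0634), Dll1 of 0.266 (0.235 to 0.301), Notch3 of 0.156 (0.0712 to 0.308), Hes1 of 0.435 (0.393 to 0.482) and Hey1 of 0.659 (0.583 to 0.746). The intervals of Jag1 at 1.05 (0.944 to 1.17) and Notch1 at 1.17 (0.562 to 2.47) spanned equality, and Notch2 stood at 1.19 (1.02 to 1.39).

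**Figure D3:**
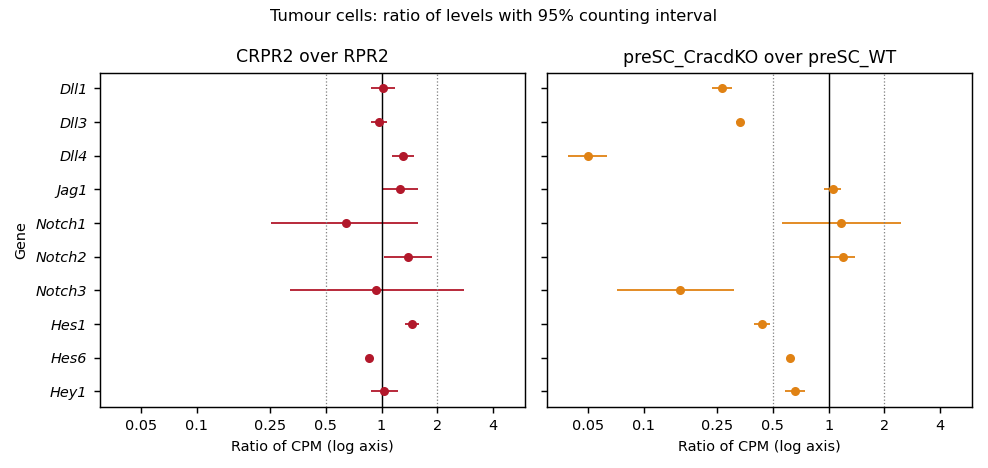
Ratio of levels in tumour cells, CRPR2 over RPR2 on the left and preSC_CracdKO over preSC_WT on the right, on a log axis with the 95% counting interval; the dotted lines are 2-fold in either direction. The lung ratios lie between 0.64 and 1.46, whereas those of Dll1, Dll3, Dll4, Notch3 and Hes1 lie below 0.5 in the allografts.

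The allograft tumours differed in more than these genes. The 16 neuroendocrine markers summed to 4217 CPM in preSC_CracdKO and 9504 CPM in preSC_WT tumour cells. The 11 markers of the keratin and vimentin list summed to 459 and 7280 CPM, of which Epcam had 37.9 and 1723 CPM. Only 1 of 11 tumour clusters was not held to 90% or more by 1 library. Within that cluster, with 1839 cells of preSC_CracdKO and 214 of preSC_WT, the ratio of Dll3 was 0.753 and the call was lost. That of Dll4 was 0.151, those of Hes1 and Hey1 were 1.42 and 1.36, that of Notch2 was 0.553 and that of Notch1 was 0.0283. The 214 preSC_WT cells held few UMIs of such genes, with Hey1 at 3.31 CPM (0.0837 to 18.4) and Notch2 at 6.61 CPM (0.801 to 23.9). Even Dll1 at 0 had an interval up to 12.2 CPM there, so a change of direction is not shown for these low genes. The Notch1 and Dll4 ratios within this cluster also rest on few preSC_WT UMIs, so the size of those drops is uncertain. With clusters weighted alike in both libraries, Hes1 was at 0.146 and was called, Notch2 was at 0.548, Jag1 at 2.9, Dll1 at 0.159, Notch1 at 0.144 and Hey1 at 0.278. This weighting gave much weight to cluster 3, with 21 preSC_CracdKO and 2766 preSC_WT cells. In those 21 cells Hes1, Dll1, Notch1, Notch2 and Hey1 were each at 0 CPM (0 to 61.8), and Jag1 was at 16.8 CPM (0.424 to 93.4). The weighted ratios of these genes are therefore uncertain. The part of tumour cell makeup in the allograft ratios was not tested.

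Within lung tumours the members varied by cluster. Hes1 ranged from 39.995 CPM (cluster 2) to 115 CPM (101 to 129; cluster 8) in CRPR2 and from 26.6 CPM (cluster 2) to 67.6 CPM (53.2 to 84.8; cluster 12) in RPR2. Cluster 8 was led by cell-cycle genes such as Cenpf, Ube2c and Birc5. Dll4 was highest in cluster 2 and lowest in cluster 8 in both libraries. It had 28.5 CPM (25 to 32.4) and 8.37 CPM (5.04 to 13.1) in CRPR2, and 22.9 and 8.67 CPM in RPR2. In CRPR2 this order was the reverse of that of Hes1. In RPR2 Hes1 was highest in cluster 12 and not in cluster 8. Dll3 ranged from 27.6 to 40.7 CPM in CRPR2 and from 18.0 to 45.5 CPM in RPR2, lowest in cluster 12 in both. Hes6 was also lowest in cluster 12, at 142 CPM in CRPR2 and 192 CPM in RPR2.

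**Figure D4:**
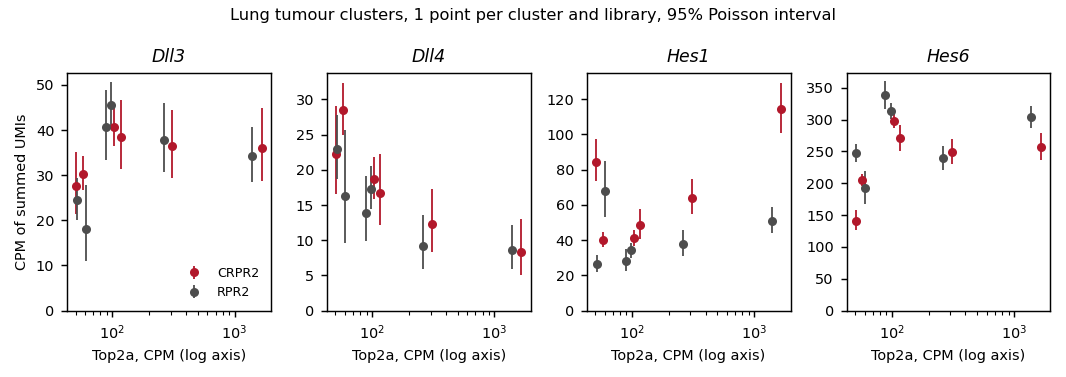
Level of Dll3, Dll4, Hes1 and Hes6 (CPM, from 0) against Top2a, a gene of dividing cells (CPM, log axis), with 1 point per lung tumour cluster and library and its 95% Poisson interval. Dll4 is lowest in the clusters richest in Top2a, at 8.37 CPM in CRPR2 and 8.67 CPM in RPR2, and Hes1 of CRPR2 is highest there at 115 CPM.

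Within single tumour cells thinned to 2000 UMIs, Mki67, a marker of division, was seen more often where Hes1 was seen than where it was not, in 26.2% and 19.0% of CRPR2, 31.7% and 21.9% of RPR2, 39.3% and 24.1% of preSC_CracdKO and 27.9% and 22.3% of preSC_WT cells. The cells with a Hes1 UMI numbered 446, 183, 150 and 330 in these libraries. Cells of 1 library are not replicates, and clusters were not separated in these shares.

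A T-lineage cluster of RPR2 held the highest Hes1 level of all clusters in the 4 libraries. Notch1 is required for T cells to form in the thymus, and Hes1 is among its early targets there. In thymocyte-like cluster 20, 68 cells led by Myl10, Dntt and Trdc, Hes1 had 2100 CPM (1957 to 2252), Notch1 252 CPM (204 to 308) and Notch3 50.4 CPM from 19 UMIs. In cluster 10, 612 dividing cells, Hes1 had 181 CPM (168 to 194) and Notch1 52.9 CPM (46.3 to 60.2). In cluster 1, 2698 cells led by Rag1 and Cd8b1, Hes1 had 37.6 CPM (31.5 to 44.5) and Notch1 20.9 CPM (16.4 to 26.2). Hes1 and Notch1 thus fell in the same order over the 3 clusters, with intervals that did not overlap. Hes6 had 76.9, 91.3 and 114 CPM in clusters 20, 10 and 1. CRPR2 held no cells of these clusters, so no comparison with it was made.

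**Figure D5:**
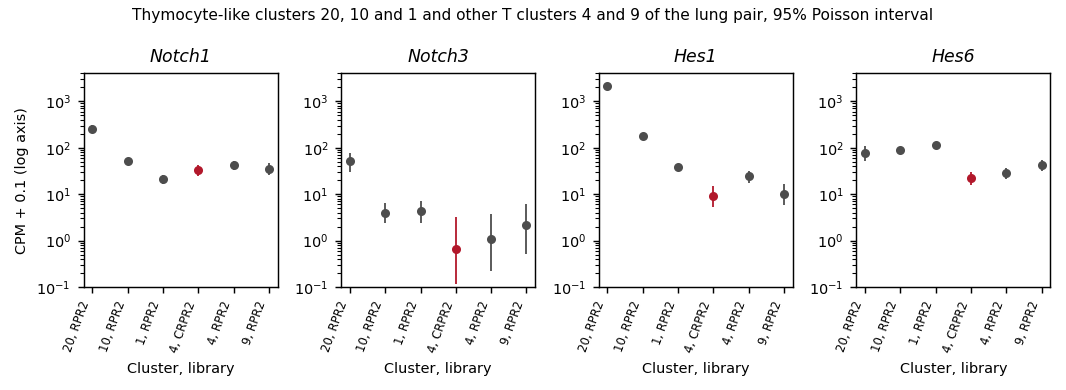
Level of Notch1, Notch3, Hes1 and Hes6 (CPM + 0.1, log axis) with 95% Poisson intervals in thymocyte-like clusters 20, 10 and 1 of RPR2 and in the other T clusters 4 and 9 of the lung pair (CRPR2 red, RPR2 grey). Hes1 spans 2100 CPM in cluster 20 to 9.02 CPM in cluster 4 of CRPR2, while Notch1 of the other T clusters stays between 32.7 and 42.4 CPM.

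In club-like cells 5 members reached 20 CPM and 0 were called, against 2.98% of 5635 genes, 1.42% higher and 1.56% lower in CRPR2. Notch1 there had a ratio of 0.65 (0.503 to 0.847), CRPR2 over RPR2, and Hes1 1.11 (1.01 to 1.22). In T-cell-like cells 2 members, Notch1 and Hes6, reached 20 CPM and 0 were called, against 6.7% of 5387 genes, 1.21% higher and 5.49% lower in CRPR2. Their ratios were 0.843 (0.611 to 1.15) and 0.647 (0.439 to 0.937). Hes1, under 20 CPM, had a ratio of 0.497 (0.268 to 0.872), and cluster 9, rich in Lef1 and Ccr7, gave 5 of 879 T-cell-like cells in CRPR2 and 698 of 1327 in RPR2. Within cluster 4, which both libraries shared, Hes1 had 9.02 CPM (5.15 to 14.6) in CRPR2 and 23.9 CPM (17.6 to 31.7) in RPR2.

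A wider list of 74 genes of the pathway, from ligands to nuclear factors and the proneural genes set against it, was followed in tumour cells. In the lung pair 41 of 74 reached 20 CPM, 1 was higher and 1 lower in CRPR2, against 0.528% and 0.583% of all genes, and 39 were not called, with a median log2 ratio of 0.02 against -0.03 over all genes. Aph1b, a subunit of gamma-secretase, had 23.0 CPM in CRPR2 and 10.6 CPM in RPR2. Neurog3, a proneural factor, had 7.57 CPM in CRPR2 and 29.7 CPM in RPR2. Rbpj, the nuclear partner of all receptors, had 78.6 and 75.6 CPM.

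In the allografts 37 of 74 reached 20 CPM, 0 were higher and 9 lower in preSC_CracdKO, against 6.94% and 14.3% of all genes, with a median log2 ratio of -0.29 against -0.15 over all genes. Among the 9 were Dll3, Jag2, Ncstn, Neurl3, Maml2, Tle1, Tle4 and Insm1. Jag2, a ligand, had 12.2 CPM in preSC_CracdKO and 42.3 CPM in preSC_WT. Ncstn, a gamma-secretase subunit, had 11.98 and 34.8 CPM, and Neurl3, a member of the neuralized family of ubiquitin ligases, 5.30 and 20.4 CPM. Maml2, a coactivator of the Rbpj complex, had 14.8 and 54.1 CPM. The corepressors Tle1 and Tle4 had 32.0 and 95.2 CPM, and 19.8 and 55.3 CPM. Insm1, a neuroendocrine factor, had 107 and 253 CPM. Rbpj had 87.1 and 74.4 CPM and was not called. Rest had 0.524 and 0.161 CPM, a ratio of 3.26 (1.73 to 6.57) at very low levels.

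Likeness of pattern was measured as Pearson's correlation of log2(CPM + 1) over 34 sums of cells by class and library, each of at least 50 cells, among 12950 genes. The sums share libraries and depth, so these values are a description. Dll1 stayed under 20 CPM in these sums and was not compared. The genes most like Dll3 were Nrip3, Stk33 and Dscaml1 (r from 0.935 to 0.937). Dll4 was most like Arhgef15 (0.865), Jag2 (0.854) and Sema3f (0.826), and Jag1 most like Cald1, Cd151 and Pxdn (0.886 to 0.895). Among receptors, Notch3 was most like Nfatc4, Daam2 and Mmp23 (0.863 to 0.894), Notch1 like AW011738, Gbp7 and Pdlim2 (0.769 to 0.82) and Notch2 like Lrrk2, Snap23 and Gpat3 (0.735 to 0.752). Hes1 was most like Bphl, Rbpms and Cat (0.716 to 0.734), Hes6 like Pola1, Mgat5b and Gse1 (0.857 to 0.882) and Hey1 like Dusp23, Aplp2 and Myo6 (0.756 to 0.764).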

How the data were processed

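Mouse cells were dissociated, strained and freed of dead cells, and 3′ libraries were made, per the labels' protocols. The authors deposited raw UMI counts for each gene in each barcode, which Cell Ranger made (version 6.1.2 for lung, 5.0.0 for allografts, per the file headers); the build was mm10, per the submitters' processing notes. All columns of per-sample values were used, with 0 left out.

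Each pair was clustered with scanpy 1.11.5 in Python 3.11.15 (at least 300 genes, at most 15% mitochondrial UMIs, 2000 variable genes without the members, 50 principal components, Leiden resolution 1). Scrublet doublets were removed, 259 in RPR2 and 356 in preSC_WT. Its automatic call marked under 0.5% in the other libraries, so the highest scores at 0.8% per 1000 barcodes were removed there, 1145 in CRPR2 and 2083 in preSC_CracdKO. Clusters were named from marker lists, with a scoring rule set after the clusters were seen. The members and lists were chosen with earlier results of these data known.

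UMIs were summed per class and library, with exact Poisson intervals for levels, exact conditional intervals for ratios and Clopper-Pearson intervals for shares. Calls used ratios of CPM + 1, and printed ratios have no pseudocount. A level of 0 allows up to 3 counts. The calls and intervals were tested on simulated data. Named genes were all members, pathway genes called in either pair, Rest, and the 3 genes most like each member; 1 gene that the rule names is not reported here. Alternatives covered scaling (edgeR 4.0.16 TMM and DESeq2 1.42.0 size factors), minimum level, fold, pseudocount, doublets, mitochondrial limit, clustering and thinning.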

Additional observations from a re-analysis of the deposited data

Results flagged for a closer look

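For 2 members the pairs lay on opposite sides of equality in tumour cells. Dll4 had a ratio of 1.31, CRPR2 over RPR2, in the lung pair and of 0.0499, preSC_CracdKO over preSC_WT, in the allografts. Hes1 had ratios of 1.46 in the lung pair and 0.435 in the allografts. The difference between the pairs was not tested, since each pair has 1 library a group. It also depends on the allograft labels, against which Cracd RNA goes. Taken as preSC_WT over preSC_CracdKO, the ratios were 20.02 for Dll4 and 2.30 for Hes1, on the same side as in the lung pair. Other members go the other way. As labelled, Hes6 (0.852 in lung, 0.618 in the allografts) and Notch2 (1.39 and 1.19) lay on the same side in both pairs. With the allograft labels reversed they would lie on opposite sides.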

How the results depend on the processing

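No paired analysis was possible because each group had 1 library, and for the same reason no replicate could be left out. In the lung pair 0 members were called under each alternative. Genes called there numbered 80, and 355 with no minimum level, 130 at 10 CPM, 41 at 50 CPM and 298 at 1.5-fold. In the allografts 1727 genes were called, and 3643 with no minimum, 987 at 50 CPM and 3327 at 1.5-fold. The 1 member called, Dll3, became 4 (Dll1, Dll3, Dll4 and Hes1) with no minimum and also at 10 CPM, and 2 (Dll3 and Hes6) at 1.5-fold. Members called numbered 2 (Dll3 and Hes1) with tumour clusters weighted alike, and 0 without clusters held to 90% by 1 library. Both of these cluster settings draw on clusters with few cells in 1 library, as given above. Pathway genes called in the allografts numbered 9, and 16 at 10 CPM and 21 with no minimum. DESeq2 size factors moved the allograft median of all genes to a log2 ratio of -0.03, against -0.15. Without clusters held to 90% by 1 library, 59.3% of allograft calls were higher in preSC_CracdKO, against 32.7% with all clusters. A lower or absent minimum adds genes by construction; the cause of the other changes was not tested. Depth limits Notch1 and Notch3 in tumour cells, which rest on 8 to 59 UMIs a library.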

Other observations

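Members were also measured in immune cells outside the classes above. B-cell-like cells had Notch2, which is required for marginal zone B cells in mouse, at 38.6 CPM (28.1 to 51.6) in CRPR2 and 38.4 CPM (27.3 to 52.5) in RPR2, and at 189 CPM (108 to 307) in preSC_CracdKO and 91.8 CPM (76.1 to 110) in preSC_WT. Macrophage-like cells of the allografts had Notch2 at 148 CPM (93.0 to 225) in preSC_CracdKO and 85.5 CPM (72.5 to 100.1) in preSC_WT. Monocyte-like cells of the lung pair had Hes1 at 103 CPM (78.7 to 132) in CRPR2 and 139 CPM (114 to 168) in RPR2. NK-like cells had Hes1 at 275 CPM (206 to 360) in CRPR2 and 116 CPM (53.1 to 221) in RPR2.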
